A study of Mus musculus with 10 samples.

Results

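Transcripts of ultraconserved elements were followed in mouse liver through the array probes whose id begins with "uc". All 373 such probes, of 97836 non-control probes on the array, carried ids of the form uc.mouse followed by a number, and all were kept. Livers of 10 male mice with the strain name C57BL/6J and an age of 42 days were profiled on 1 one-colour array each. The 5 control mice were wild type and ate a regular mouse diet. The 5 hyperlipidemic mice lacked apolipoprotein E (ApoE-/-), which carries lipoprotein remnants to the liver, and ate high-fat food with 2.5% cholesterol and 15% fat, so genotype and food differed together and cannot be told apart. The control group shares neither the deletion nor the food, and no label says whether mice of a group were littermates or were housed together. The spread behind each p-value is that among these 10 samples, and the limma fit draws it towards the spread typical of all features tested.

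Ultraconserved elements are long stretches of DNA that are identical, base for base, between the genomes of human, mouse and rat. Some lie within exons, often of genes for RNA-processing proteins, and others lie in introns or between genes, where several act as developmental enhancers. RNA copied from them is called T-UCR, for transcribed ultraconserved region, and a T-UCR can be part of a host messenger RNA or a separate non-coding RNA. In liver, such RNAs have mainly been studied in hepatocellular carcinoma and in fat accumulation.

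The ids ran from uc.mouse.1 to uc.mouse.483 with 373 different numbers. The highest number lies above the last number of the human catalogue, so a mouse id and a human element with the same number are not taken to be the same element here. None of the ids (0) bore a strand mark, so the strands of an element were not compared. Positions, sequences and host genes of the elements were not used here, and the probes are described by id. Each probe had 1 spot per array, with 0 spots flagged as outliers and 0 saturated.

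A spot was counted as detected where the extraction software flagged it as well above background. Over the arrays, 33.6% to 49.2% of the 175906 non-control spots were detected, and control replicate 4 gave the highest share. Control replicates 1 to 4 shared slide 1. Slide 2 combined hyperlipidemic replicates 1 to 3 with control replicate 5, and hyperlipidemic replicates 4 and 5 were alone on slide 3. Slide and group therefore overlap on slide 2 alone, which held 1 control array. Of 8 hepatocyte-linked transcripts looked up by symbol, 5 had a probe and 4 of these were detected on all 10 arrays, the fifth, Serpina4-ps1, on 2 control and 4 hyperlipidemic arrays. None of the 9 blood and leukocyte or 3 stellate and endothelial symbols matched a probe (0 of each), so the part of other cells was not tested, although the labels' protocols name a blood RNA kit for samples labelled as liver.

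By the well-above-background flag, most ultraconserved probes were not detected in these livers, a count that depends on the flag. Of the 373 probes, 265 (71.0%) were detected on none of the arrays (98 by the laxer flag for positive and significant signal), 43 on 1 array, 36 on 2 to 9 arrays and 29 (7.77%) on all 10. Per array, 38 to 88 of the 373 were detected. The counts were 57, 38, 50, 88 and 57 in control replicates 1 to 5 and 58, 42, 41, 55 and 51 in hyperlipidemic replicates 1 to 5. The group means were 58.0 ± 18.5 and 49.4 ± 7.64 probes (SD, n = 5 per group). These ranges overlap, and control replicate 4 stands above the other 9 arrays.

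**Figure D1:**
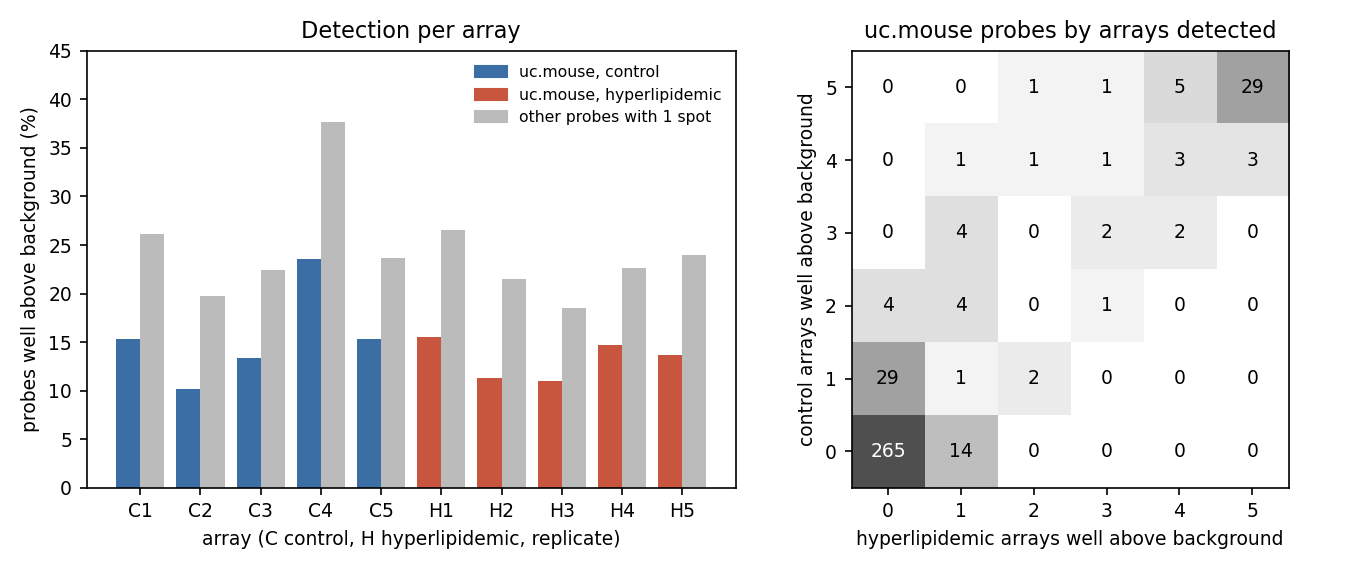
Left, the share of probes well above background (%) on each array, for the 373 uc.mouse probes (blue control, red hyperlipidemic) and for the other probes with 1 spot (grey). Right, the number of uc.mouse probes by how many of 5 control arrays (vertical) and 5 hyperlipidemic arrays (horizontal) detected them, shaded by log count; 265 probes lie in the corner at 0 and 29 in the corner at 5 of 5 in both groups.

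Of the 29 probes detected on every array, 28 were uc.mouse.6, uc.mouse.13, uc.mouse.40, uc.mouse.85, uc.mouse.119, uc.mouse.137, uc.mouse.153, uc.mouse.169, uc.mouse.186, uc.mouse.191, uc.mouse.204, uc.mouse.245, uc.mouse.263, uc.mouse.264, uc.mouse.271, uc.mouse.294, uc.mouse.298, uc.mouse.301, uc.mouse.331, uc.mouse.352, uc.mouse.387, uc.mouse.393, uc.mouse.431, uc.mouse.443, uc.mouse.448, uc.mouse.458, uc.mouse.459 and uc.mouse.473, and the remaining 1 bears a number from the studied elements described at the end. Each was set against the lowest signal that still counted as detected on the same array. For 14 of the 29, every array lay at least 4-fold above that limit. The margin was widest for uc.mouse.186, whose lowest array was still 28.6-fold above it, followed by uc.mouse.352 at 24.0-fold and uc.mouse.169 at 23.0-fold. The narrowest margin was 1.39-fold. Probes differ in how well they hybridise, so this margin says how firmly a probe was detected and not how abundant its RNA was.

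No ultraconserved probe (0) was detected on all 5 arrays of 1 group and at most 1 of the other. The 265 probes detected on none of the arrays could not meet this rule, and it was not counted over other probes. Detection was on more control arrays for 51 probes, on more hyperlipidemic arrays for 22 and on equal numbers above 0 for 35. This lean came largely through control replicate 4. The other probes with 1 spot were also detected more on control arrays on average, 25.9% against 22.6% (SD 6.96 and 2.98, n = 5 each). Without both replicates numbered 4, a setting chosen after seeing the data, 21 probes were on a larger share of control arrays and 15 on a larger share of hyperlipidemic arrays. Of the 33 probes detected in control arrays alone, 24 were detected on control replicate 4 and nowhere else, and without that array 27 probes were detected on a larger share of control arrays and 28 on a larger share of hyperlipidemic arrays. Of the 14 probes detected in hyperlipidemic arrays alone, each on 1 array, 8 were detected on hyperlipidemic replicate 4.

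Ultraconserved probes were detected less often than the other probes with 1 spot on each array, a description without a test. On the single arrays the share was 10.2% to 23.6% for the ultraconserved probes and 18.5% to 37.7% for the 19393 others with 1 spot. Of curated RefSeq non-coding probes with 1 spot, 17.6% were detected on all 10 arrays, of NONCODE probes with 1 spot 15.9% and of RIKEN clone probes with 1 spot 12.2%, beside 7.77% of the ultraconserved probes. Control replicate 4 had the largest share detected among the ultraconserved probes (23.6%) and among the others (37.7%).

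To compare the groups, log2 processed signals were expressed relative to the 75th percentile of the same array's non-control spots, and features were tested where at least 4 of 5 arrays of a group detected them. Of the 373 ultraconserved probes, 47 (12.6%) were tested and 326 were not. Through both groups 40 qualified, through control arrays alone 5 and through hyperlipidemic arrays alone 2, and those 7 could enter only because of the brighter group. The 8 probes just inside this limit, with 4 arrays of a group at most, were uc.mouse.47, uc.mouse.157, uc.mouse.159, uc.mouse.177, uc.mouse.329, uc.mouse.398, uc.mouse.436 and uc.mouse.470. The 7 just outside it had 3 arrays of a group at most.

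No tested ultraconserved probe differed between the groups past the threshold. With limma over all 30244 features, 0 of the 47 rose and 0 fell in hyperlipidemic livers at an adjusted p under 0.05, where 0.0694% of all features were called, 0.043% higher and 0.0265% lower. The smallest adjusted p among the 47 was 0.698. At an unadjusted p under 0.05 there was 1 probe higher and 1 lower, together 4.26% of the 47 against 5.81% of all features (2.98% higher and 2.83% lower). The groups did not overlap for 1 of the 47 (2.13%), against 0.972% of all features. Differences below 0 made up 24 of the 47 (51.1%), 56.1% of the other tested features with 1 spot and 45.8% of all features. The median difference (hyperlipidemic minus control, log2) was -0.02 over the 47 and -0.02 over the 29 detected on all arrays. It was -0.05 over the other tested features with 1 spot and 0.03 over all features. In bulk liver RNA, fewer cells of a type and less RNA per cell cannot be told apart.

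The width of the interval around the difference varied between probes. The 95% interval of the difference lay within 2-fold in both directions for 38 of the 47, and for 26 of the 29 detected on all arrays. On the log2 scale the interval reached 0.57 to each side of the difference at the median, and at least 0.37. For the remaining 9 probes (uc.mouse.12, uc.mouse.35, uc.mouse.177, uc.mouse.200, uc.mouse.202, uc.mouse.301, uc.mouse.431, uc.mouse.436 and uc.mouse.458) the interval reached a 2-fold difference in at least 1 direction. These are single-probe intervals from the fit on group alone, with no term for slide, which largely goes with group. With slide as a fixed block, which rests on 1 control array, 21 of the 47 differences changed sign. The intervals therefore do not bound what slide could add or hide, and a p that misses the threshold does not show equal levels.

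**Figure D2:**
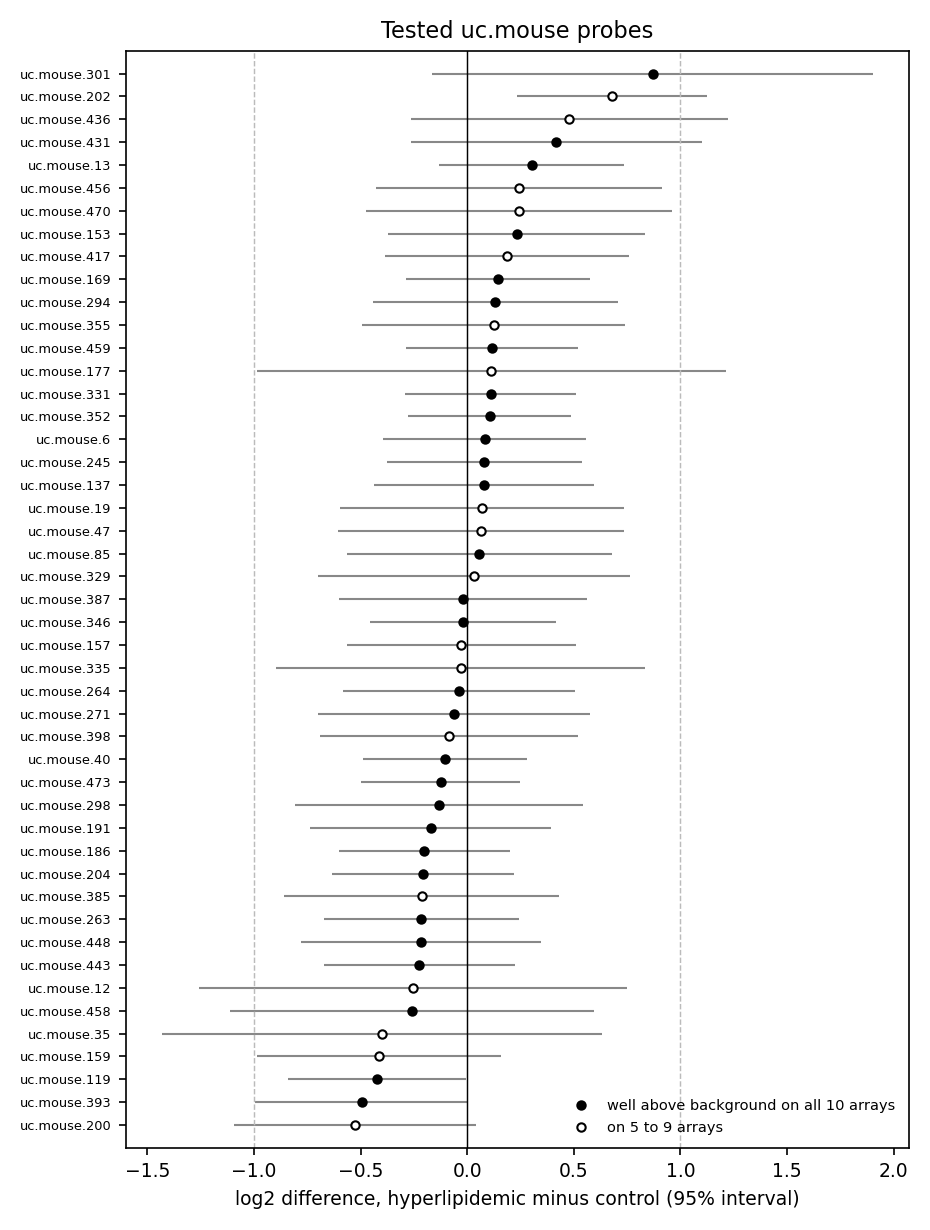
Log2 difference (hyperlipidemic minus control) of the 47 tested uc.mouse probes with its 95% interval from the limma fit on group alone, ordered by size. Filled points were detected on all 10 arrays and open points on 5 to 9, and dashed lines mark a 2-fold difference; 38 intervals lie between the dashed lines and 45 include 0.

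The smallest p belonged to uc.mouse.202, with the higher levels in hyperlipidemic livers. Its log2 levels were -1.13, -1.25, -1.38, -0.82 and -1.07 in control replicates 1 to 5 and -0.26, -0.44, -0.09, -0.49 and -0.97 in hyperlipidemic replicates 1 to 5. All hyperlipidemic arrays but replicate 5 lay above every control array, and the groups overlapped through that array and control replicate 4. The difference was 0.68 (SE 0.21, 95% interval 0.23 to 1.13), with an unadjusted p = 0.00547 and a limma adjusted p = 0.698. Detection failed on control replicate 2 alone. With slide as a fixed block it was 0.80 (limma adjusted p = 0.9999), and it stayed between 0.59 and 0.81 when 1 array was left out. With normexp background correction, which adds an offset of 50, it was 0.27.

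uc.mouse.119 was the single tested probe whose groups did not overlap. In control livers its 5 arrays lay close together, at 0.39, 0.34, 0.32, 0.53 and 0.32. Hyperlipidemic levels were 0.06, -0.06, -0.57, 0.11 and 0.24, all below the lowest control array, and replicate 3 lay farthest down. The difference was -0.42 (SE 0.19, 95% interval -0.84 to -0.01), with an unadjusted p = 0.0469 and a limma adjusted p = 0.827. It was -0.51 with slide as a fixed block and -0.29 without hyperlipidemic replicate 3. With normexp it was -0.22. The probe was detected on all 10 arrays.

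A pair of further probes leaned lower in hyperlipidemic livers with intervals that just reached 0. For uc.mouse.393 the control arrays stood at 0.01, 0.74, 0.96, 0.22 and 0.72 and the hyperlipidemic ones at 0.20, -0.16, 0.10, -0.38 and 0.42. Control replicates 1 and 4 lay among the hyperlipidemic arrays. The difference was -0.50 (SE 0.23, limma adjusted p = 0.827), or -0.68 with slide as a fixed block and -0.24 with normexp. uc.mouse.200 stood at -0.56, -0.64, -0.20, -0.19 and 0.02 in control livers and -0.18, -1.07, -0.70, -1.67 and -0.59 in hyperlipidemic livers. Hyperlipidemic replicate 4, its lowest array, was not detected. Its difference of -0.53 (SE 0.27, limma adjusted p = 0.827) was -0.32 without that array and -0.22 with normexp. Over the 10 arrays uc.mouse.200 was also the tested probe whose levels ran most like those of uc.mouse.393, with a Pearson correlation of 0.72, or 0.58 after each group's mean was taken off. These points share arrays and their normalization, and the correlation is a description.

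**Figure D3:**
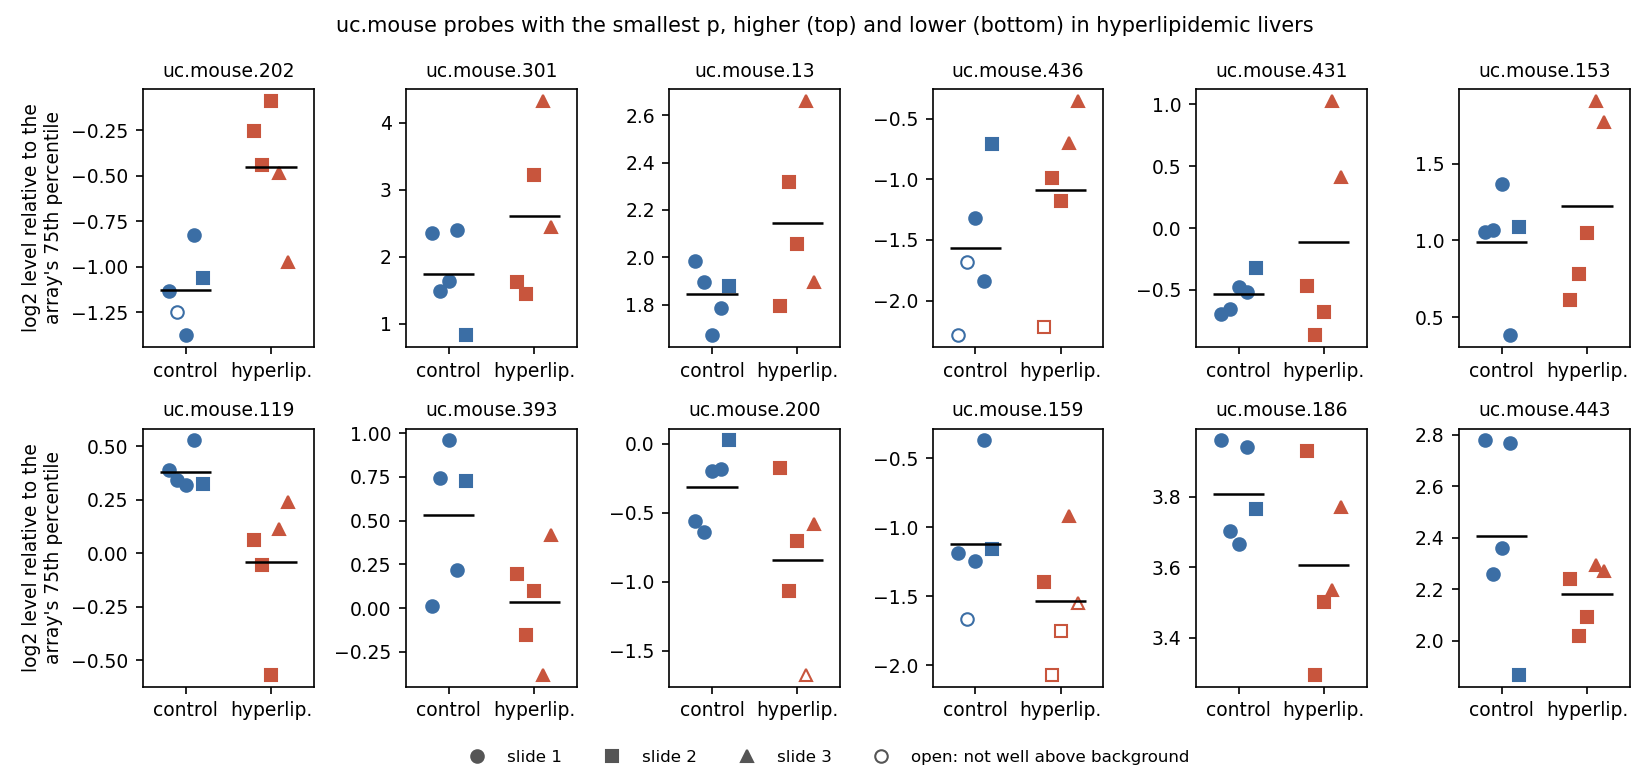
Log2 level relative to the array's 75th percentile for the 6 uc.mouse probes with the smallest p in each direction, 1 panel per probe with its own vertical scale. Points are single arrays (blue control, red hyperlipidemic, shape by slide, open where not detected) and lines are group means; for uc.mouse.119 alone the groups do not overlap, and in the panels of uc.mouse.431, uc.mouse.436 and uc.mouse.153 both arrays of slide 3 lie above all others.

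uc.mouse.301 had the widest difference of the 47 and, among the 29 probes detected on all arrays, the widest spread over the 10 arrays. Its levels were 2.36, 1.49, 1.64, 2.40 and 0.83 in control livers and 1.63, 1.44, 3.22, 4.33 and 2.44 in hyperlipidemic livers. Hyperlipidemic replicates 3 to 5 lay above every control array, and replicates 1 and 2 lay within the control range. The difference of 0.87 (SE 0.48, limma adjusted p = 0.827) had a 95% interval from -0.16 to 1.90. It was 0.44 without hyperlipidemic replicate 4. The arrays were cut into 3 sets at the widest gaps in the signal of a spike-in RNA added at labelling. Hyperlipidemic replicates 3 to 5 make up 1 of these sets, which holds no control. Control replicates 1 to 3 make up another, which holds no hyperlipidemic array. With the sets as a block, the difference was -0.08. That value rests on control replicates 4 and 5 against hyperlipidemic replicates 1 and 2, the only set with both groups. With slide as a fixed block the difference was 1.27, which rests on control replicate 5, the lowest control array.

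For 3 probes with higher hyperlipidemic means, both arrays of slide 3, which held no control, gave the highest levels. uc.mouse.431 stood at 1.03 and 0.41 there, while its other 8 arrays lay between -0.87 and -0.32. uc.mouse.153 stood at 1.91 and 1.77 on slide 3, with a highest level of 1.37 elsewhere. uc.mouse.436 stood at -0.70 and -0.35 there, and control replicate 5 at -0.71 came next. Detected on 3 control and 4 hyperlipidemic arrays, uc.mouse.436 entered the comparison only through the group where it was brighter. The differences were 0.42, 0.23 and 0.48 (limma adjusted p = 0.828, 0.871 and 0.827). With slide as a fixed block they were -0.35, -0.27 and -0.75, so their direction turned. With 1 array left out, that of uc.mouse.431 ran from 0.13 (without hyperlipidemic replicate 4) to 0.61, that of uc.mouse.153 from 0.06 (without hyperlipidemic replicate 4) to 0.39 (without hyperlipidemic replicate 1), and that of uc.mouse.436 from 0.30 (without hyperlipidemic replicate 5) to 0.76 (without hyperlipidemic replicate 1). Group and slide cannot be told apart on slide 3.

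The other probes named by size of p had differences between -0.41 and 0.30. uc.mouse.13 differed by 0.30 (SE 0.20), with control arrays from 1.67 to 1.98 and hyperlipidemic arrays from 1.80 to 2.66. It was 0.18 with slide as a fixed block and 0.17 without hyperlipidemic replicate 4. uc.mouse.159 differed by -0.41 (SE 0.27) and was detected on 4 of 5 control arrays but 2 of 5 hyperlipidemic ones. It therefore entered the comparison only through the group where it was brighter. Its highest level, -0.37, came from control replicate 4, and without that array the difference was -0.23. uc.mouse.186, the probe with the widest margin over the detection limit, differed by -0.20 (SE 0.19), with group means of 3.81 ± 0.14 in control and 3.61 ± 0.25 in hyperlipidemic arrays (n = 5 each, SD), and its difference was -0.12 without hyperlipidemic replicate 2 and -0.11 with array weights. uc.mouse.443 differed by -0.22 (SE 0.21) and turned to 0.25 with slide as a fixed block, where the sole control on a shared slide was control replicate 5, its lowest array at 1.87. It was -0.36 without that array and -0.13 without control replicate 4. All 4 had a limma adjusted p between 0.827 and 0.835.

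The probes differed in how much they varied between livers. Among the 29 probes detected on all arrays, the SD over the 10 arrays was 0.31 at the median and ran from 0.15 to 1.02 on the log2 scale. The steadiest were uc.mouse.473 (SD 0.15, levels 0.61 to 1.06), uc.mouse.352 (SD 0.17, levels 2.98 to 3.49), uc.mouse.40 (SD 0.17, mean levels 1.36 in control and 1.26 in hyperlipidemic livers) and uc.mouse.331 (SD 0.20, levels 2.18 to 2.73). Their differences were -0.13, 0.10, -0.10 and 0.11, and their 95% intervals reached no farther from 0 than 0.51, the upper bound of uc.mouse.331. With slide as a fixed block the difference of uc.mouse.331 was 0.40 and that of uc.mouse.352 was -0.04.

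The most variable of the 29 were uc.mouse.301 (SD 1.02), uc.mouse.458 (SD 0.74), uc.mouse.431 (SD 0.59) and uc.mouse.298 (SD 0.55). uc.mouse.458 stood at 1.08, -0.73, 0.67, 1.31 and -0.47 in control livers and 0.90, -0.38, -0.52, 0.42 and 0.13 in hyperlipidemic livers. It was high and low in both groups, and its difference was -0.26 (SE 0.40), or 0.47 with slide as a fixed block. With 1 array left out it ran from -0.54 (without control replicate 2) to -0.03 (without control replicate 4). uc.mouse.298 ran from -0.24 to 1.05 in control and from -0.81 to 0.73 in hyperlipidemic livers, with control replicate 4 highest and hyperlipidemic replicate 3 lowest. Its difference of -0.13 (SE 0.32) turned to 0.09 without control replicate 4, and likewise without hyperlipidemic replicate 3, and was -0.30 without hyperlipidemic replicate 5. It was also the tested probe whose levels ran most like those of uc.mouse.119, with a Pearson correlation of 0.68 over the 10 arrays and 0.60 without control replicate 4.

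**Figure D4:**
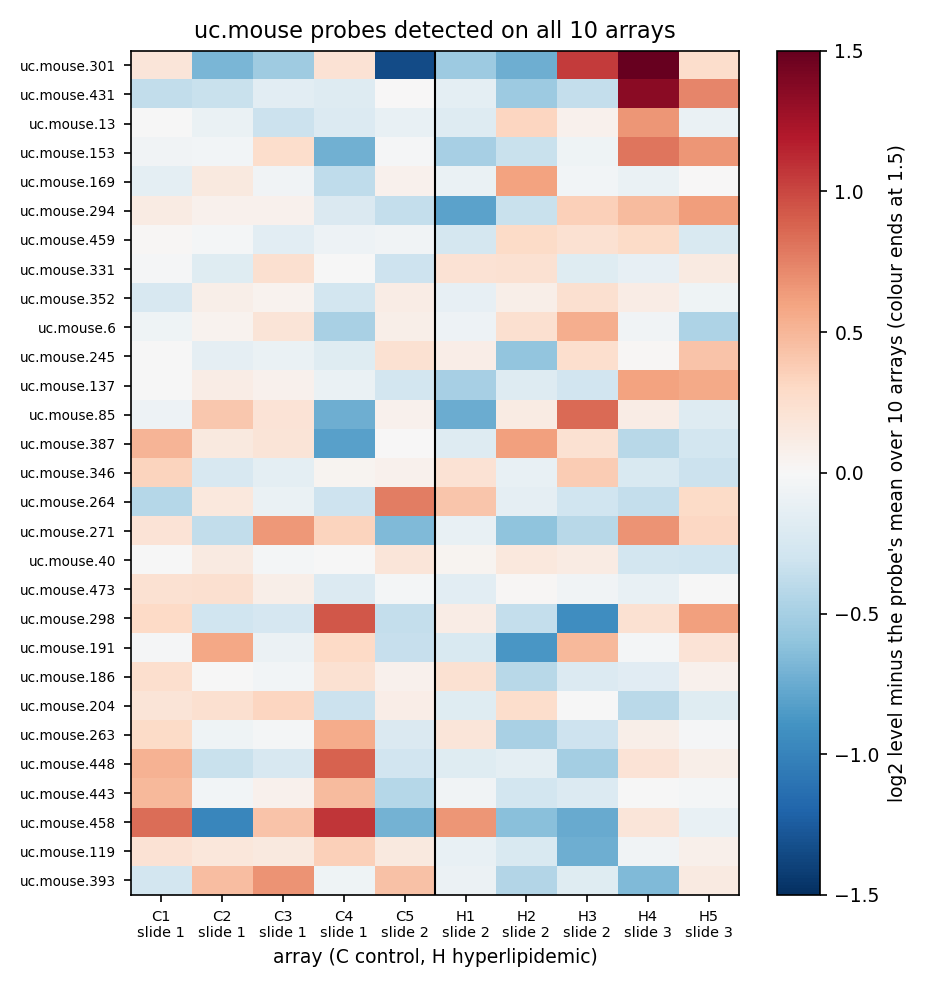
Log2 level of the 29 uc.mouse probes detected on all 10 arrays, each as the deviation from its own mean over the arrays (red above, blue below; the colour scale ends at 1.5), with arrays in columns and probes ordered by their difference. The line separates control from hyperlipidemic arrays; no block of probes is red on one side and blue on the other, and uc.mouse.301 and uc.mouse.458 show the widest swings.

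Single arrays held many of the extreme levels. Of the 47 tested probes, 10 had their highest level on hyperlipidemic replicate 4, 9 on control replicate 4 and 8 on hyperlipidemic replicate 5. The lowest level fell on hyperlipidemic replicate 2 for 10 probes. The median level of the 47 was 0.29, -0.07, 0.11, 0.22 and -0.07 in control replicates 1 to 5 and 0.07, -0.24, -0.16, 0.35 and 0.42 in hyperlipidemic replicates 1 to 5. Over these 47, both arrays of slide 3 stood highest and hyperlipidemic replicate 2 lowest, with group ranges that overlap. Over the 29 detected on all arrays the order was another, with the highest median on control replicate 2 (1.06), the lowest on hyperlipidemic replicate 1 (0.49) and hyperlipidemic replicates 4 and 5 at 1.03 and 0.75.

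Of 16 element numbers known from published work, 10 had a probe with the same number, and the same number need not be the same element. Among them are the human elements behind a T-UCR described in hepatocellular carcinoma, one tied to lipid accumulation in liver and one studied in brown fat. The probe with the number of that hepatocellular carcinoma element was detected on control replicates 1, 4 and 5 and on hyperlipidemic replicate 4, and was not tested. Its levels were -1.61, -1.39, -2.38, -1.27 and -1.45 in control livers and -1.99, -2.18, -1.76, -1.35 and -2.00 in hyperlipidemic livers, which overlap. The probe with the number of the lipid accumulation element was detected on none of the arrays (0 of 10), like 4 others of the 10. Among those 4 is a further number from published liver or lipid work. uc.mouse.73 was detected on control replicate 4 and hyperlipidemic replicate 4, and 1 further probe on hyperlipidemic replicate 4 alone.

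Of these 10 probes 2 were tested. The one with the number of the brown fat element stood at -0.37, -0.24, -0.41, -0.34 and -1.52 in control livers and -0.53, -0.17, -0.74, -0.62 and 0.12 in hyperlipidemic livers. Control replicate 5 was the low array and the one on which it was not detected, and the groups overlapped. The difference was 0.19 (SE 0.27, limma adjusted p = 0.892), and with slide as a fixed block, where that array is the only control on a shared slide, it was 1.04. Without that array it turned to -0.05. The other tested probe, detected on all arrays with the narrowest margin, had mean levels of -0.53 ± 0.22 over the control and -0.56 ± 0.30 over the hyperlipidemic arrays (n = 5 each, SD). Its groups overlapped, with a difference of -0.02 and a 95% interval from -0.46 to 0.41.

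Beside other tested features, the ultraconserved probes that were tested had the following sizes of difference. The median size of the difference, without its sign, was 0.14 for the 47, 0.22 for the 4030 other tested features with 1 spot and 0.20 for all features. The median SD within groups was 0.45, 0.43 and 0.38 in the same order. Of the 192 curated RefSeq non-coding features tested, 0 were called, and of 5971 NONCODE features 4 were. These are descriptions of lists of very different length, and the difference between them was not tested.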

How the data were processed

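Per the file headers, the authors' spot intensity values come from Agilent Feature Extraction 11.5.1.1, which name the mm9 build and list background subtraction and spatial detrending. The 75th percentiles of the processed signal differed between arrays. Control spots and outlier-flagged spots were dropped and the spots of a probe averaged as log2. From each log2 value the 75th percentile of its array was subtracted. Per probe, detection for the filter required all its spots, and RefSeq probes of 1 gene (RefSeq table of assembly GRCm38.p6) kept their brightest probe, which left 30244 features. limma 3.58.1 in R 4.3.3 (lmFit, eBayes, two-sided, Benjamini-Hochberg over all features) compared 5 hyperlipidemic with 5 control arrays, and the functions were tested on simulated data. The number of arrays limits the precision.

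The value table deposited by the authors is on the log2 scale. Over the ultraconserved probes each column equalled log2 processed signal plus 1 constant, with the 75th percentile over probes at 0, so scale, centring and direction are known. Its medians were -2.70, -2.80, -2.73, -2.33 and -2.81 in control and -2.71, -2.81, -2.83, -2.77 and -2.69 in hyperlipidemic replicates 1 to 5.

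The members and lists were chosen with earlier results of these data known. Named probes are those past the threshold, the 6 with the smallest p in each direction, those with separate groups or group-wise detection, the 4 steadiest and 4 most variable of those on all arrays, and those with studied numbers. The planned strand comparison could not be made. The labels' molecule field names genomic DNA, while the protocols describe RNA. Alternatives covered scaling, background, filter, slide, spike-in sets, weights, prior and left-out arrays.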

Additional observations from a re-analysis of the deposited data

Results flagged for a closer look

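A single array that lay far from the other 4 of its group was looked for in each group of the 28 named probes. Of 56 group values 4 held such an array. For independent, normally distributed values about 1 in 20, or 2.8, would be flagged. These probes share arrays, were partly chosen by their spread, and several lay below detection, so that number is no measure here. The probe with the number of the brown fat element stood at -1.52 in control replicate 5 and was not detected, against -0.41 to -0.24 on the rest of its group. The studied number detected on hyperlipidemic replicate 4 alone stood there at 0.14, while the others, none of them detected (0 of 4), lay between -4.04 and -3.63. uc.mouse.73 in control replicate 4 stood at -1.84, above undetected arrays between -3.86 and -3.45. uc.mouse.160 in control replicate 1 stood at -2.58, below detection like its group, whose other arrays lay between -3.86 and -3.56.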

How the results depend on the processing

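In none of 25 alternative settings of the fit was a tested ultraconserved probe called (0 higher and 0 lower in each), with a smallest adjusted p of 0.247, for uc.mouse.202 with array weights. The median difference of the ultraconserved probes stayed between -0.19 (spike-in sets) and 0.17 (no filter, which adds probes below detection). Over all features the median was 0.10 in each of these settings. The median level of the 47 had an SD of 0.24 between single arrays within groups, which is not the uncertainty of a difference between group means. Direction was less steady, and 21 of the 47 differences changed sign with slide as a fixed block, which rests on 1 control array. With the spike-in sets as a fixed block, which rests on control replicates 4 and 5, 20 changed sign. The count was 15 without both replicates numbered 4 and 12 with array weights. With 1 array left out it ran from 1 (without hyperlipidemic replicate 1) to 10 (without hyperlipidemic replicate 3 or 4). It was 0 with the values deposited by the authors, 1 with slide as a random block, 2 with quantile normalization and 9 with normexp. Detection counts depended on the flag. With the laxer flag for positive and significant signal, 97 probes in place of 47 reached 4 arrays of a group, 61 in place of 29 were detected on all arrays and 98 in place of 265 on none, while 109 were on a larger share of control and 58 on a larger share of hyperlipidemic arrays. The count on a larger share of control arrays, 51 in the report, was 27 to 57 when 1 array was left out. It was lowest without control replicate 4. Without both replicates numbered 4 it was 21, against 15 on a larger share of hyperlipidemic arrays. The spike-in sets, used in place of a planned ratio of spike-ins that was not run, and the detection count without both replicates numbered 4 were chosen after seeing the data. The median signal stood in for a mean signal in normexp. Strand alternatives were not run, since no id has a strand mark. No paired analysis was possible because the labels number no replicates, so the numbers used here match no control mouse to a hyperlipidemic one.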

Other observations

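Of the 326 probes outside the comparison, 4 were bright on 1 array alone, with a level above -1 there and below -2.5 on the other 9 arrays, a rule set after the values were seen. uc.mouse.67 stood at -0.17 on control replicate 5 and between -4.69 and -3.58 elsewhere. uc.mouse.467 stood at -0.80 on hyperlipidemic replicate 4 and between -4.67 and -3.55 elsewhere. uc.mouse.318 stood at -0.92 on hyperlipidemic replicate 5 and between -4.65 and -3.55 elsewhere. The remaining probe of the 4 bears a studied number and was detected on hyperlipidemic replicate 4 alone, where it stood at 0.14. Each of these probes has 1 spot per array, so a duplicate spot cannot be set beside these values.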
